A study of Homo sapiens with 16 samples.

Results

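The subject here is a set of 45 genes for the cytokines, chemokines, proteases, protease inhibitors and growth factors that senescent cells are known to secrete. They were taken by symbol from a fixed list, matched to Ensembl identifiers, and all 45 had a row among the 58676 gene identifiers counted. The RNA, selected for poly(A) tails, came from the human cancer cell lines A549 (lung) and SUM159 (triple-negative breast). Each line was untreated (UT), or exposed for 16 h to 2 µM palbociclib (PD), 3 µM indisulam (IN) or both drugs together (P+I). Palbociclib inhibits the cell cycle kinases CDK4 and CDK6, and indisulam directs the splicing factor RBM39 to degradation. SUM159 medium contained insulin and hydrocortisone and A549 medium did not, so the line and its medium cannot be told apart. Every group held 2 libraries, which the study treats as technical replicates, so p-values measure only the spread between these libraries and not that between independent cultures. In bulk RNA, fewer cells that make a factor and less of its RNA per cell cannot be told apart.

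Senescent cells stop dividing but stay metabolically active and release a mixture of secreted proteins, the senescence-associated secretory phenotype (SASP). Cell-surface IL-1α is thought to start the programme through the IL-1 receptor and the transcription factor NF-κB, which with C/EBPβ drives IL6 and the CXC chemokines; metalloproteinases, plasminogen activators, insulin-like growth factor (IGF) binding proteins and growth factors make up the rest. In senescent cultures the full phenotype usually takes days to develop, whereas the cells here were collected within a day.

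The neutrophil-attracting chemokine genes lie in 1 cluster on chromosome 4, and their promoters and that of IL6 are shown because these genes moved with the drugs in different ways. They were chosen after their values were seen. Each window runs from position -160 to -21 relative to the start site on the gene's own strand (RefSeq, GRCh38.p14), and capitals mark matches to the NF-κB consensus, to the AP-1 motif TGANTCA or to the C/EBP motif TTGCNNAA.
CXCL1 (chr4:73869233-73869372, plus strand, NF-κB): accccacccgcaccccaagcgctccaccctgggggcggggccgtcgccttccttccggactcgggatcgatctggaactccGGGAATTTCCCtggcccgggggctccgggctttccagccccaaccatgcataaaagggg
CXCL2 (chr4:74099216-74099355, minus strand, NF-κB): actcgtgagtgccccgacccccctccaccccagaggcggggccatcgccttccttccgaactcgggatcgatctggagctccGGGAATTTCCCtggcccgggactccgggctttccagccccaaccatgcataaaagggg
CXCL3 (chr4:74038710-74038849, minus strand, NF-κB): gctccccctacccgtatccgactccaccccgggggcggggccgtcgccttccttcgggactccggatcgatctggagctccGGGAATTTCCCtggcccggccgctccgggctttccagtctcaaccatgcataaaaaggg
CXCL5 (chr4:73998698-73998837, minus strand, NF-κB): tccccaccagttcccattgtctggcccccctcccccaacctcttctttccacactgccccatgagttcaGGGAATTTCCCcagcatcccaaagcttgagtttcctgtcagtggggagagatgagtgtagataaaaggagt
CXCL8 (chr4:73740409-73740548, plus strand, AP-1): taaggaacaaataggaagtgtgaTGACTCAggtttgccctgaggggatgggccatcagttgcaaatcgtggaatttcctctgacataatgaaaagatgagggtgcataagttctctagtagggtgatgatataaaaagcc
IL6 (chr7:22727040-22727179, plus strand, C/EBP then NF-κB): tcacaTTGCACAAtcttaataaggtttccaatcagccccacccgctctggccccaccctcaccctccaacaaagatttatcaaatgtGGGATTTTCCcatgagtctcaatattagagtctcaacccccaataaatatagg
CXCL1, CXCL2, CXCL3 and CXCL5 held an identical run of 11 bases, GGGAATTTCCC, which matched the consensus on both strands and began at positions -79, -78, -79 and -91 from the start site in that order. Such a match describes letters in a window and is not a measured binding site. Nor does the lack of a match show that a site is absent. The CXCL8 window held a run that differed from the NF-κB consensus in its first base only and so stands in lower case. Of the 45 members, 30 had a promoter in the RefSeq table (250 bases before the start to 50 after). Of these 30, 9 (30%) held the NF-κB consensus, against 7.09% of all 27305 genes with a promoter of that length. Among the 9 were CXCL1, CXCL2, CXCL3 and CXCL5, which lie in 1 cluster and share the same 11 bases, so they are not separate observations. The AP-1 motif was found in 6 (20%) against 9.37%, the C/EBP motif in 5 (16.7%) against 12.7% and the TATA box letters TATAAA in 12 (40%) against 14%, with both strands searched and motifs allowed to overlap.

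Libraries held between 18306636 and 34075588 gene counts, and 3 counts, the smallest number read as a signal, came to between 0.0880 and 0.164 CPM (counts scaled to 1000000 per library). The 10 markers of A549 (AKR1B10, ALDH1A1, keratins and others) summed to between 21959 and 35955 CPM in A549 libraries and between 987 and 1324 CPM in SUM159. The 10 markers listed for SUM159 (VIM, AXL, CAV1 and others) summed to between 5108 and 7077 CPM in SUM159 and between 1422 and 1729 CPM in A549. Among them KRT5 was low in SUM159. CDKN2A ran the opposite way to its listing, with a mean of 0.0201 CPM in SUM159 and 1.96 CPM in A549. Fibroblast markers were present in SUM159 (between 805 and 957 CPM, mostly COL1A1). Leukocyte markers were low in both lines (at most 17.2 CPM summed over 8 genes). The 4 endothelial markers summed to between 22.7 and 42.2 CPM in SUM159, mostly PECAM1, and to at most 1.62 CPM in A549. MKI67, a proliferation marker, fell with palbociclib by 2.68 in A549 and 2.14 in SUM159 (log2). LMNB1, the lamin lost in senescence, fell by 2.09 and 1.85. With the combination in A549, fits that left out 1 library gave -3.11 to -2.86 for MKI67 and -3.39 to -3.28 for LMNB1. The same fits in SUM159 gave -2.67 to -2.49 for MKI67 and -2.35 to -2.29 for LMNB1. MKI67 and LMNB1 belong to a list of 8 proliferation and senescence genes. With palbociclib, 1 of the 8 was higher in A549 (all genes: 22%) and 3 lower (21.1%). In SUM159, 1 of the 6 tested was higher (25.5%) and 4 were lower (29%).

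Of the 45 members, 35 passed the filter on low counts in A549 and 40 in SUM159. The 10 that did not pass in A549 were IL1A, CCL20, CCL5, CSF2, CSF3, MMP1, MMP3, MMP10, SERPINB2 and INHBA, each with at most 7 counts in any library. The 5 that did not pass in SUM159 were CXCL5, CCL2, MMP10, IGFBP5 and TNFRSF11B, each with at most 4 counts. A member kept through the group in which it was high had to differ, so the counts below describe tested members only. Because the strand setting of the counting is not given, counts of IL6, LIF, CCL5, MMP1, MMP2, MMP3, MMP10, TIMP1, TIMP2, IGFBP5, IGFBP7, PLAU, VEGFA, ICAM1, FGF2, INHBA and CCN2, which overlap annotated genes on the other strand, are uncertain to that extent. Whatever that setting, PLAUR overlaps another gene on its own strand, as do MMP2, TIMP2 and FGF2. CXCL1, CXCL2 and CXCL3 are close copies whose reads can be lost or split between them.

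In untreated cells most members differed between the lines, as did most genes. Of 43 members tested in the fit of all 16 libraries, 26 (against 38.3% of all genes) were higher in SUM159 and 16 (against 38%) were lower. Of the 43, 12 had passed the filter of 1 line only, and such a member was kept through the line in which it was high. Among the 31 that passed in both lines, 18 were higher (39.1% of all genes that did) and 12 lower (37.1%). Levels in this paragraph use scaling over all 16 libraries and differ from those scaled within a line below. IL1B was the member not called, with a log2 difference of -1.26 ± 0.74 (SE, adjusted p = 0.126). Per kilobase of exon, A549 held most IGFBP4 (419.6 CPM per kb), CXCL5 (400.0), IGFBP3 (250.04), TIMP1 (84.6) and the urokinase gene PLAU (82.6). On the same scale SUM159 held most TIMP1 (868), IGFBP4 (594), MMP2 (81.8) and the matricellular genes CCN1 (70.4) and CCN2 (68.5). IGFBP3 separated the lines more than any other member with counts in both, at 1142 ± 22.5 CPM (SD, n = 2) in untreated A549 and 2.34 ± 0.161 CPM (SD, n = 2) in untreated SUM159. The tissue plasminogen activator gene PLAT went the other way, with 1.74 ± 0.502 CPM (SD, n = 2) in A549 and 284 ± 0.226 CPM (SD, n = 2) in SUM159. CXCL5, a chemokine at 974 ± 3.71 CPM (SD, n = 2) in A549, had no count in untreated SUM159 and was thus at least 7160.2-fold lower there, measured against the floor of 3 counts in 1 library. TNFRSF11B, the decoy receptor osteoprotegerin, was likewise at least 101-fold lower in SUM159, and CCL5, a lymphocyte-attracting chemokine, at least 86.2-fold lower in A549. The calls of CXCL2, IL11 and INHBA between the lines were lost when 1 library was left out: CXCL2 without A549 untreated replicate 2 (-0.13) or SUM159 untreated replicate 2 (-0.26) and with total-count scaling (-0.31) or DESeq2 (-0.40), IL11 without SUM159 untreated replicate 1 (-1.24) and INHBA without SUM159 untreated replicate 2 (2.19).

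**Figure D1:**
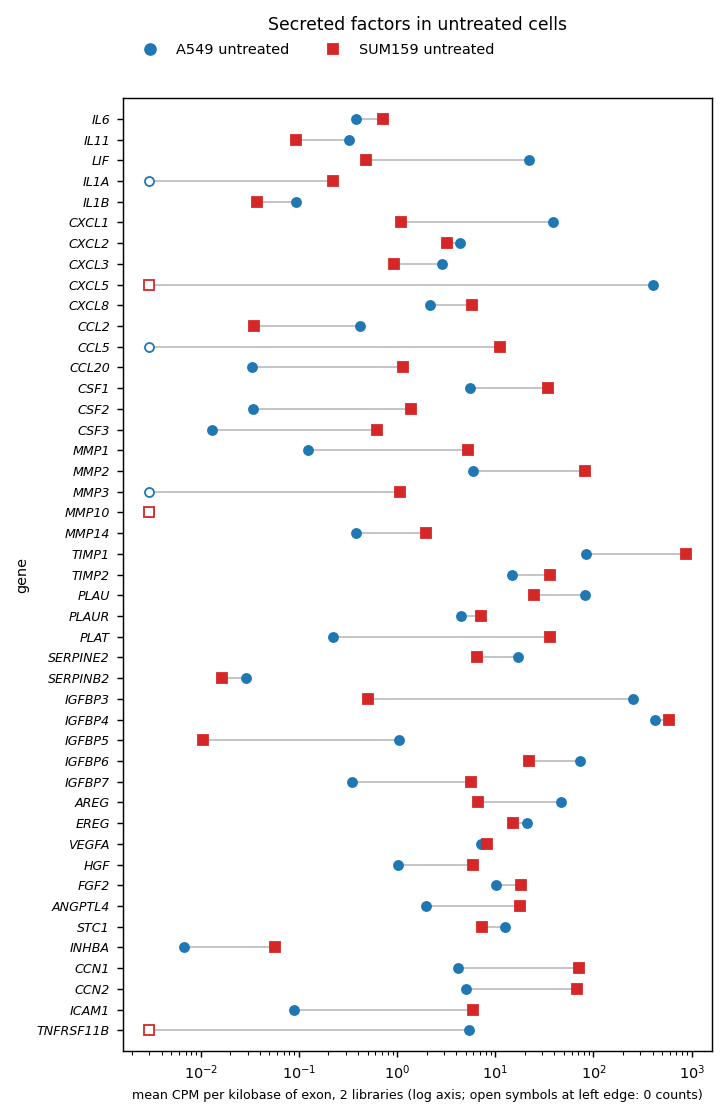
Mean level of each of the 45 genes in untreated A549 (circles) and untreated SUM159 (squares), in CPM per kilobase of exon on a log axis, over 2 libraries each. Open symbols at the left edge had no count. CXCL5, IGFBP3, LIF and IGFBP5 lay far to the right in A549, and PLAT, ICAM1, MMP1 and CCL5 far to the right in SUM159.

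Palbociclib alone was followed by more rises than falls in both lines. In A549, 17 of 35 tested members were higher (all genes: 22% higher) and 4 were lower (21.1%), with a median log2 change of 0.26 against 0.03 over all genes. In SUM159, 24 of 40 were higher (25.5%) and 2 lower (29%), with a median of 0.39 against 0.02. Indisulam alone gave a different balance. In A549, 8 members were higher (23.3% of all genes) and 14 lower (25.9%), with a median of -0.13 against 0.01 over all genes. In SUM159, 11 were higher (21.9%) and 8 lower (24.9%), both near the share of all genes, with a median of 0.05. With the combination, 16 members were higher in A549 (27.4%) and 11 lower (30.4%), with a median of 0.20 against 0.00. In SUM159, 24 were higher (32.2%) and 6 lower (33.1%), with a median of 0.31. With the combination, 2 members were called and at least 2-fold higher in A549 (5.53% of all genes) and 2 as much lower (7.63%). In SUM159, 8 were higher (10.6%) and 1 lower (4.27%) by that much. Among the 8 were IL1B and SERPINB2, with 5 and 2 counts over both untreated libraries. The filter kept these 2 members through treated libraries in which they were high, so they had to differ. The comparisons with untreated cells share those libraries within a line. In SUM159, scaling by total counts in place of TMM moved the median of all genes up by 0.105 with palbociclib and by 0.148 with the combination, and changes there are relative to the TMM scale.

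**Figure D2:**
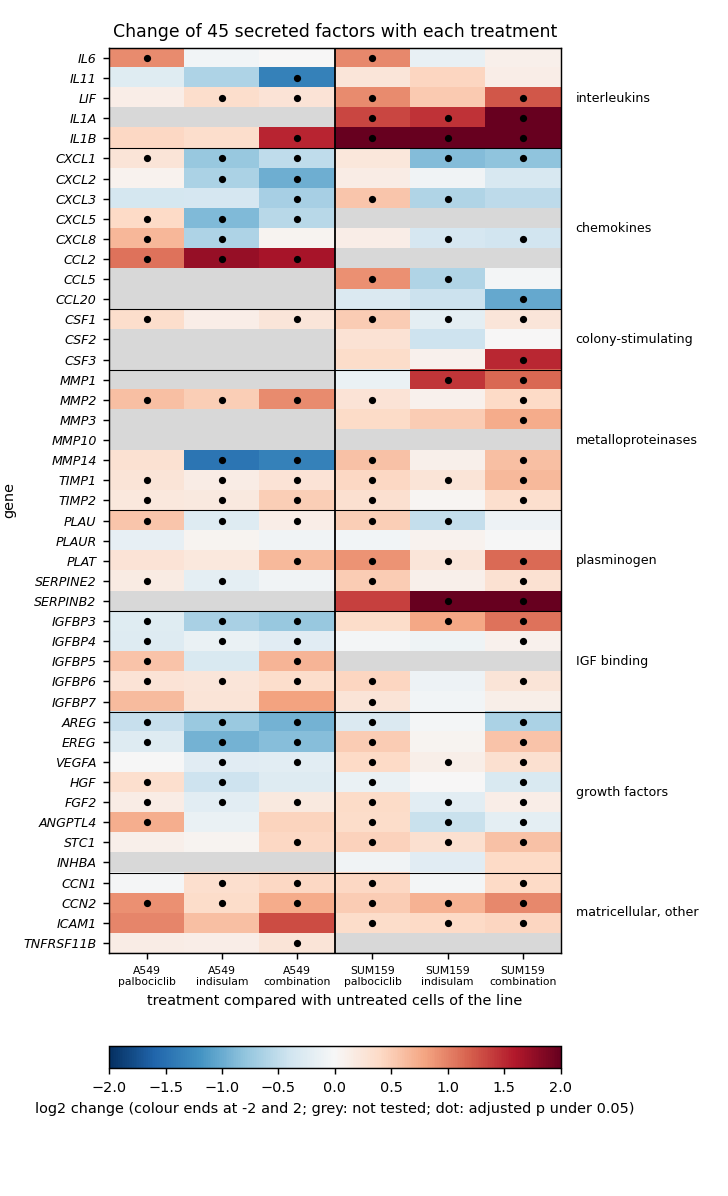
Log2 change of each of the 45 genes (rows, grouped by role) with palbociclib, indisulam or the combination against untreated cells of the same line, by colour. Dots mark edgeR adjusted p-values under 0.05, and grey cells were not tested. IL6 is coloured for palbociclib alone in both lines, and IL1A, IL1B and SERPINB2 are among the darkest reds in SUM159. The CXC chemokines are blue under indisulam in A549, CXCL3 without a dot. In SUM159 under indisulam CXCL2 is nearly white and CXCL5 is grey. Colours saturate at a log2 change of 2 in size.

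Among the interleukins, IL6, the leading cytokine of the SASP, was higher with palbociclib alone in both lines and lay near its untreated level once indisulam was present. In A549 IL6 stood at 1.76 and 1.41 CPM untreated, 3.49 and 2.78 in PD, 1.71 and 1.35 in IN and 1.61 and 1.59 in P+I libraries. The palbociclib libraries lay above all others, with a log2 change of 0.95 ± 0.22 (SE, adjusted p = 0.00276), whereas the indisulam and combination libraries fell within or beside the untreated range (-0.05 and 0.01). SUM159 showed the same order, with 3.76 and 2.87 CPM untreated, 6.67 and 6.30 in PD, 2.44 and 3.47 in IN and 3.21 and 3.99 in P+I libraries. Here palbociclib gave 0.96 ± 0.17 (SE, adjusted p = 0.000114), and again no other group was separated from the untreated libraries. The combination was lower than palbociclib alone by 0.94 (log2) in A549 and 0.86 in SUM159, both called.

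IL1A and IL1B encode the IL-1 cytokines that act at the top of the SASP. In SUM159 both were higher with each drug and higher still with the pair, though at low levels. IL1A was found at 0.482 and 0.479 CPM untreated, 1.20 and 1.24 in PD, 1.12 and 1.49 in IN and 2.34 and 2.85 in P+I libraries. The 4 groups did not overlap except palbociclib with indisulam, and the log2 change was 1.34 ± 0.32 (SE, adjusted p = 0.002) with palbociclib, 1.44 with indisulam and 2.41 with the combination. IL1B in SUM159 was at 0.145 and 0.0957 CPM untreated, 0.562 and 0.589 in PD, 0.681 and 0.673 in IN and 1.68 and 2.13 in P+I libraries. All treated libraries lay above both untreated ones, which held 3 and 2 counts. The combination gave 3.92 ± 0.40 (SE, edgeR adjusted p = 1.65e-07). IL1B passed the filter in SUM159 through treated libraries, so this p-value is not separate support for a rise. Pooled over both libraries, the ratio of scaled IL1B counts was 15.7 with the combination (exact 95% interval 6.52 to 49.3, counting error only). In A549, IL1A had at most 3 counts in any library, and IL1B was 0.207 and 0.338 CPM untreated, 0.526 and 0.261 in PD, 0.214 and 0.480 in IN and 0.689 and 0.890 in P+I libraries. The combination libraries were the highest there, at 1.53, but this call was lost without untreated replicate 1 (1.21) or combination replicate 2 (1.35) and with DESeq2 (1.55).

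LIF, a cytokine of the IL-6 family, was far more abundant in A549, at 81.2 and 83.2 CPM untreated, 90.7 and 90.3 in PD, 103 and 105 in IN and 89.6 and 109 in P+I libraries. Indisulam gave 0.34 ± 0.07 (SE, adjusted p = 0.000846) and the combination 0.27, and the latter call was lost without combination replicate 2 (0.13). In SUM159 LIF ran at 2.65 and 1.34 CPM untreated, 3.71 and 3.95 in PD, 2.89 and 2.83 in IN and 4.92 and 4.49 in P+I libraries. Both untreated libraries lay below every treated one, but they differed from each other by more than any treated pair did. The log2 change was 0.94 ± 0.21 (SE, adjusted p = 0.00118) with palbociclib and 1.24 with the combination. The first of these was 1.52 without untreated replicate 1 and 0.53 without untreated replicate 2, and the second 0.83 without untreated replicate 2, all called. IL11, of the same family and under 1 CPM throughout, was lower with the combination in A549 (-1.35 ± 0.40 (SE, adjusted p = 0.0105)), a call lost without combination replicate 2 (-1.16) and with DESeq2 (-1.36), and was not called in SUM159.

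Of the CXC chemokines that act on CXCR2, CXCL1, CXCL2, CXCL5 and CXCL8 fell with indisulam in A549. CXCL5 was among the most abundant members in A549, at 940.0 and 944 CPM untreated, 1242 and 1234 in PD, 511 and 514 in IN and 643 and 642 in P+I libraries. Its duplicates nearly coincided and the 4 groups were fully apart, with palbociclib above untreated (0.39 ± 0.04 (SE, adjusted p = 4.92e-07)), indisulam below (-0.88) and the combination between the 2 (-0.55). CXCL1 in A549 followed, with 49.0 and 52.8 CPM untreated, 62.9 and 58.5 in PD, 31.0 and 29.4 in IN and 35.4 and 36.3 in P+I libraries. Indisulam gave -0.75 ± 0.06 (SE, adjusted p = 3.26e-07) and the combination -0.50, while the small palbociclib rise (0.25) was lost without untreated replicate 1 (0.19). In SUM159 CXCL1 was scarce, at 1.83 and 1.34 CPM untreated, 1.80 and 1.88 in PD, 0.842 and 0.886 in IN and 0.904 and 0.912 in P+I libraries. Every indisulam and combination library lay under 1 CPM and every other library above it. The log2 change of CXCL1 with indisulam in SUM159 was -0.87 ± 0.26 (SE, adjusted p = 0.0108), lost without untreated replicate 1 (-0.63) or indisulam replicate 1 (-0.84) and with DESeq2 (-0.89), and with the combination -0.80, lost without untreated replicate 1 (-0.56) and with DESeq2 (-0.81).

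CXCL8, the interleukin-8 gene, rose with palbociclib and fell with indisulam in A549, where it stood at 6.25 and 4.56 CPM untreated, 8.93 and 8.37 in PD, 3.34 and 3.75 in IN and 5.84 and 5.39 in P+I libraries. Palbociclib gave 0.66 ± 0.14 (SE, adjusted p = 0.00146) and indisulam -0.62 ± 0.17 (SE, adjusted p = 0.00714), the second lost without untreated replicate 1 (-0.36) or indisulam replicate 1 (-0.53). The combination libraries fell inside the untreated range. In SUM159 CXCL8 was at 17.0 and 14.5 CPM untreated, 17.7 and 16.9 in PD, 12.4 and 12.5 in IN and 11.5 and 12.6 in P+I libraries. There palbociclib was not called (0.14), the combination gave -0.39 ± 0.09 (SE, adjusted p = 0.00121), and the indisulam fall of 0.34 was lost without untreated replicate 1 (-0.21).

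CXCL2 in A549 had 5.06 and 6.70 CPM untreated, 6.64 and 5.74 in PD, 3.81 and 3.75 in IN and 2.90 and 3.04 in P+I libraries. Its combination libraries were the lowest of the line, with -0.98 ± 0.17 (SE, adjusted p = 0.000217), and the indisulam fall of 0.63 was lost without untreated replicate 2 (-0.41). In SUM159 CXCL2 was not called with any treatment (0.15, -0.07 and -0.31 in the order PD, IN and P+I). CXCL3 was lower with the combination in A549 (-0.66 ± 0.19 (SE, adjusted p = 0.00716)). In SUM159 CXCL3 measured 2.55 and 1.77 CPM untreated, 3.30 and 3.06 in PD, 1.48 and 1.38 in IN and 1.34 and 1.71 in P+I libraries. Palbociclib lay above and indisulam below the untreated libraries, at 0.55 and -0.59. The first of these calls was at 0.84 without untreated replicate 1 and was lost without untreated replicate 2 (0.31) or palbociclib replicate 1 (0.51) and with DESeq2 (0.56) and the second without untreated replicate 1 (-0.30), indisulam replicate 1 (-0.64) or indisulam replicate 2 (-0.54) and with total-count scaling (-0.54) or DESeq2 (-0.61).

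The CC chemokines were line-specific in level. CCL2, which attracts monocytes, was called in A549 with each treatment, at 0.620 and 0.957 CPM untreated, 1.77 and 1.59 in PD, 2.48 and 2.79 in IN and 2.90 and 2.01 in P+I libraries. Every treated library lay above both untreated ones. Indisulam gave 1.75 ± 0.29 (SE, adjusted p = 0.000166) and the combination 1.65, and the palbociclib rise of 1.08 was lost without untreated replicate 1 (0.79). CCL5 in SUM159 rose with palbociclib and fell with indisulam, at 16.2 and 15.7 CPM untreated, 31.1 and 29.5 in PD, 10.0 and 11 in IN and 15.6 and 15.6 in P+I libraries. The log2 change was 0.92 ± 0.07 (SE, adjusted p = 7.28e-09) with palbociclib and -0.60 ± 0.08 (SE, adjusted p = 1.83e-05) with indisulam, and the combination libraries lay just under the untreated ones (-0.03). CCL20, an attractant of CCR6-bearing cells, was at 1.98 and 1.91 CPM untreated, 1.65 and 1.53 in PD, 1.32 and 1.56 in IN and 0.966 and 0.950 in P+I libraries in SUM159. Its levels were lowest with the combination, at -1.02 ± 0.23 (SE, adjusted p = 0.000852), and neither single drug was called.

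Of the colony-stimulating factors, CSF1, the macrophage growth factor, was higher with palbociclib in both lines. The change was 0.50 ± 0.04 (SE, adjusted p = 4.04e-09) in SUM159, and 0.35 in A549, where it was lost without untreated replicate 2 (0.24). Indisulam lowered CSF1 in SUM159 by 0.20. With the combination it was higher by 0.24 in SUM159 and by 0.25 in A549, the latter lost without untreated replicate 2 (0.14) or combination replicate 1 (0.19) and 0.38 without untreated replicate 1. CSF3, the granulocyte factor, was found in SUM159 at 1.49 and 1.44 CPM untreated, 2.02 and 1.77 in PD, 1.56 and 1.56 in IN and 4.74 and 3.50 in P+I libraries. Its combination libraries were the highest of the line, with 1.50 ± 0.20 (SE, adjusted p = 5.26e-06). CSF2 in SUM159 was near 1 CPM in every group and was not called.

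**Figure D3:**
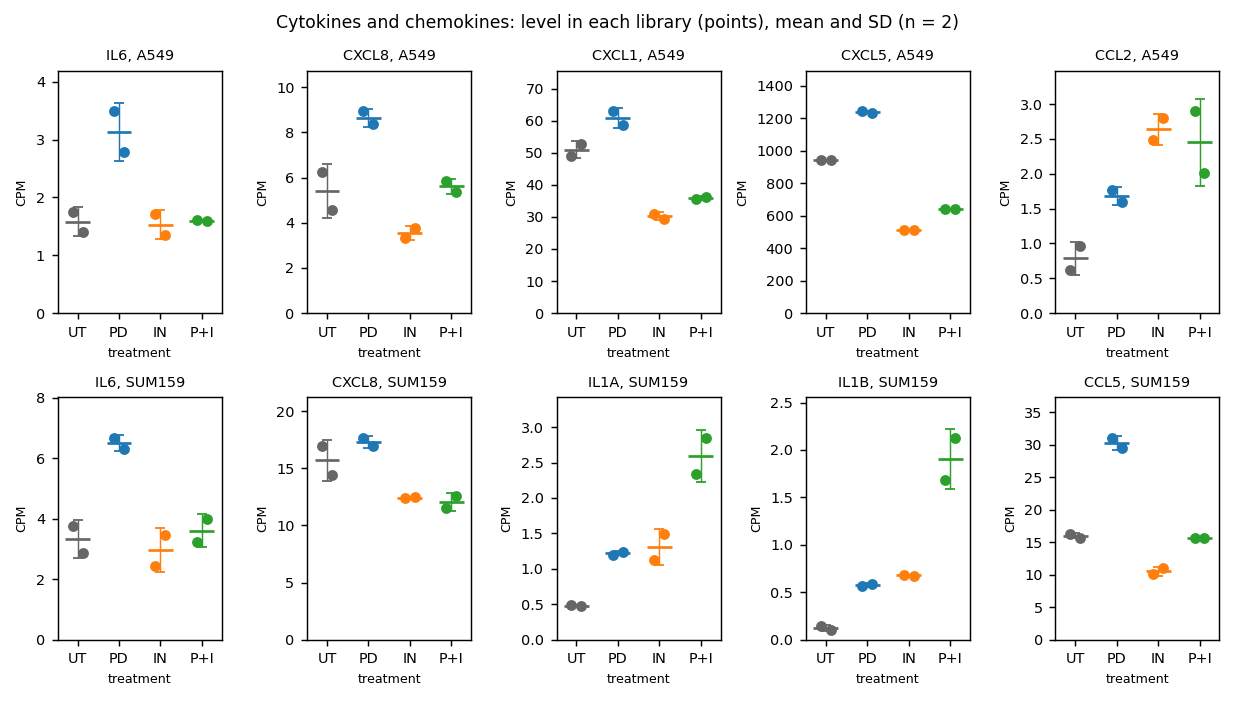
CPM (vertical axes, each from 0) of IL6, CXCL8, CXCL1, CXCL5 and CCL2 in A549 and of IL6, CXCL8, IL1A, IL1B and CCL5 in SUM159, by treatment. Points are single libraries, horizontal bars means and error bars SD (n = 2). IL6 is highest with palbociclib alone in both lines, CXCL1 and CXCL5 are lowest with indisulam in A549, and IL1A and IL1B are highest with the combination in SUM159.

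The matrix metalloproteinases degrade extracellular matrix, and the TIMP proteins inhibit them. MMP2, a gelatinase, rose with every treatment in A549, at 26.3 and 27.6 CPM untreated, 42.8 and 39.7 in PD, 38.4 and 37.2 in IN and 51.7 and 52.6 in P+I libraries. The 4 groups did not overlap, and the combination gave 0.95 ± 0.06 (SE, adjusted p = 8.89e-09), palbociclib 0.61 and indisulam 0.49. In SUM159 MMP2 changed less, by 0.27 with palbociclib and 0.39 with the combination. MMP1, the interstitial collagenase, stood in SUM159 at 14.7 and 15.8 CPM untreated, 14.7 and 13.1 in PD, 42.2 and 40.3 in IN and 34.5 and 33.3 in P+I libraries. Both groups given indisulam lay far above the other libraries. Indisulam gave 1.43 ± 0.07 (SE, adjusted p = 1.45e-10) and the combination 1.15, while palbociclib gave -0.14 and was not called. A549 libraries held 3 to 7 MMP1 counts each. MMP3, which overlaps the same pseudogene on the other strand as MMP1, was higher in SUM159 with the combination (0.75 ± 0.20 (SE, adjusted p = 0.00298)), a call lost without untreated replicate 1 (0.53).

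MMP14, a membrane-bound activator of MMP2, was called in opposite directions in the lines with the combination. Its change with palbociclib was positive in both lines, and not called in A549 (0.31). In A549 it was at 1.34 and 2.03 CPM untreated, 2.39 and 1.85 in PD, 0.812 and 0.393 in IN and 0.781 and 0.515 in P+I libraries. All 4 libraries given indisulam lay below 1 CPM and all others above. Indisulam gave -1.46, lost without untreated replicate 2 (-1.14) or indisulam replicate 2 (-1.03), and the combination -1.36 ± 0.37 (SE, adjusted p = 0.00573), lost without untreated replicate 2 (-1.04). In SUM159 MMP14 was higher with palbociclib (0.58 ± 0.09 (SE, adjusted p = 2.76e-05)) and with the combination (0.60), and indisulam alone left it at 0.09, not called. The inhibitors TIMP1 and TIMP2 were called higher with the combination in both lines. TIMP1 was higher by 0.64 in SUM159 and 0.27 in A549, and TIMP2 by 0.34 and 0.50.

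The plasminogen activators release plasmin, a protease of the matrix and of clots. PLAU, the urokinase, was higher with palbociclib in A549 (0.56 ± 0.04 (SE, adjusted p = 6.18e-08)) and SUM159 (0.50 ± 0.04 (SE, adjusted p = 5.50e-08)), and lower with indisulam in both (-0.25 and -0.48). Its receptor gene PLAUR was not called in any of the 6 comparisons with untreated cells. PLAT in SUM159 was at 302 and 299 CPM untreated, 564 and 553 in PD, 359 and 350.0 in IN and 657 and 656 in P+I libraries. The 4 groups did not overlap, and palbociclib gave 0.89 ± 0.03 (SE, adjusted p = 8.61e-13), indisulam 0.24 and the combination 1.13. In A549 PLAT was below 3 CPM, and its call with the combination (0.65) was lost without untreated replicate 1 (0.37) or combination replicate 1 (0.57) and with DESeq2 (0.65).

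SERPINE2, an inhibitor of thrombin and plasminogen activators, stood in A549 at 151 and 146 CPM untreated, 164 and 168 in PD, 132 and 129 in IN and 139 and 144 in P+I libraries. The palbociclib libraries were the highest and the indisulam libraries the lowest of the line. Indisulam gave -0.19 ± 0.04 (SE, adjusted p = 0.00218), palbociclib 0.16, the latter lost without untreated replicate 2 (0.14), and the combination was not called (-0.07). SUM159 held 64.2 and 59.7 CPM untreated, 88.7 and 87.6 in PD, 68.2 and 64.7 in IN and 75.2 and 78.1 in P+I libraries. There palbociclib gave 0.51 ± 0.05 (SE, adjusted p = 1.29e-07) and the combination 0.31. SERPINB2, the plasminogen activator inhibitor PAI-2, had 1 count in each untreated SUM159 library and at most 14 in a treated one. With so few untreated counts, the ratio of pooled, scaled SERPINB2 counts was 2.75 with palbociclib (exact 95% interval 0.548 to 26.6, which includes 1), 6.66 with indisulam (1.58 to 59.4) and 7.49 with the combination (1.83 to 65.9), intervals that cover counting error only. It was called with indisulam (2.62), lost without untreated replicate 1 (2.63), untreated replicate 2 (2.62) or indisulam replicate 1 (2.26), and with the combination (2.79), lost without combination replicate 1 (2.36) and with DESeq2 (2.88).

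The IGF binding proteins carry and restrain insulin-like growth factors. IGFBP3 fell in A549 and rose in SUM159. In A549 it was at 1121 and 1088 CPM untreated, 949 and 913 in PD, 720.2 and 686 in IN and 655 and 653 in P+I libraries. The 4 groups were fully apart, and the log2 change was -0.65 ± 0.04 (SE, adjusted p = 1.06e-08) with indisulam, -0.25 with palbociclib and -0.76 with the combination. SUM159 made far less, at 2.60 and 2.35 CPM untreated, 3.19 and 3.18 in PD, 4.49 and 4.04 in IN and 5.14 and 5.44 in P+I libraries. Indisulam gave 0.78 ± 0.16 (SE, adjusted p = 0.000617) and the combination 1.09, with palbociclib at 0.36, not called. In the fit of both lines the IGFBP3 response differed between them with each treatment, by 0.71, 1.43 and 1.91 in the order PD, IN and P+I.

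IGFBP4, the most abundant binding protein gene of the set in SUM159, was at 920.1 and 869 CPM untreated, 717 and 783 in PD, 816 and 808 in IN and 797 and 736 in P+I libraries in A549. Every treated A549 library lay below both untreated ones. Palbociclib gave -0.25 ± 0.05 (SE, adjusted p = 0.000935) and the combination -0.22, while the indisulam fall of 0.14 was lost without untreated replicate 1 (-0.09), indisulam replicate 1 (-0.14) or indisulam replicate 2 (-0.13) and with total-count scaling (-0.11). In SUM159 IGFBP4 read 1377 and 1399 CPM untreated, 1322 and 1374 in PD, 1321 and 1307 in IN and 1465 and 1482 in P+I libraries. There the combination rise of 0.09 was lost without untreated replicate 1 (0.07), untreated replicate 2 (0.09), combination replicate 1 (0.09) or combination replicate 2 (0.08) and with no filter on low counts (0.09). IGFBP5 in A549 was higher with palbociclib (0.56 ± 0.12 (SE, adjusted p = 0.0015)) and the combination (0.68). IGFBP6 was higher with the combination in A549 (0.35, and 0.20 without combination replicate 1) and in SUM159 (0.25), and with palbociclib in SUM159 (0.43). With palbociclib and indisulam in A549 the IGFBP6 calls (0.28 and 0.25) were lost without untreated replicate 2 (0.22) or palbociclib replicate 2 (0.21) for the first and without untreated replicate 2 (0.21), indisulam replicate 1 (0.25) or indisulam replicate 2 (0.26) for the second. IGFBP7 was called with palbociclib in SUM159 (0.26), a call lost without untreated replicate 1 (0.28), untreated replicate 2 (0.24) or palbociclib replicate 1 (0.24) and with DESeq2 (0.27).

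AREG and EREG encode ligands of the epidermal growth factor receptor. AREG, amphiregulin, fell in A549 with every treatment, at 75.0 and 72.2 CPM untreated, 55.2 and 52.1 in PD, 43.9 and 44 in IN and 39.1 and 37.5 in P+I libraries. The 4 groups did not overlap, and the fall was 0.46 with palbociclib, 0.74 with indisulam and 0.94 with the combination, where the edgeR adjusted p was 2.37e-09. In SUM159 AREG was at 11.5 and 11.5 CPM untreated, 9.86 and 9.13 in PD, 10.4 and 11.9 in IN and 7.39 and 7.49 in P+I libraries. Its combination libraries were the lowest (-0.63 ± 0.10 (SE, adjusted p = 3.33e-05)), and the palbociclib fall of 0.28 was lost without untreated replicate 1 (-0.28), untreated replicate 2 (-0.28) or palbociclib replicate 2 (-0.22) and with total-count scaling (-0.18), DESeq2 (-0.28) or no filter on low counts (-0.26). EREG, epiregulin, was lower in A549 and higher in SUM159. In A549 it had 114 and 117 CPM untreated, 101 and 93.4 in PD, 61.3 and 58.2 in IN and 64.1 and 64.7 in P+I libraries. All 4 libraries given indisulam lay below all others, with -0.95 ± 0.05 (SE, adjusted p = 3.85e-09) for indisulam, -0.84 for the combination and -0.25 for palbociclib. SUM159 EREG stood at 95.0 and 89.1 CPM untreated, 134 and 128 in PD, 96.7 and 94.6 in IN and 132 and 140.4 in P+I libraries. Both groups given palbociclib lay above the others, with 0.51 ± 0.05 (SE, adjusted p = 6.77e-08) for palbociclib and 0.57 for the combination.

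VEGFA, the angiogenic growth factor, was at 96.9 and 101 CPM untreated, 103 and 94.0 in PD, 86.2 and 82.1 in IN and 79.9 and 90.9 in P+I libraries in A549. Indisulam gave -0.23, lost without untreated replicate 2 (-0.20) or indisulam replicate 2 (-0.19), and the combination -0.21, lost without untreated replicate 2 (-0.18) or combination replicate 1 (-0.12) and with total-count scaling (-0.12). In SUM159 VEGFA measured 131 and 124 CPM untreated, 166 and 171 in PD, 137 and 140.1 in IN and 162 and 156 in P+I libraries. Palbociclib gave 0.40 ± 0.04 (SE, adjusted p = 2.77e-07) and the combination 0.32, and the indisulam rise of 0.12 was lost without untreated replicate 2 (0.08), indisulam replicate 1 (0.14) or indisulam replicate 2 (0.12) and with DESeq2 (0.11). HGF, the ligand of MET, was at 10.3 and 8.84 CPM untreated, 11 and 13 in PD, 7.06 and 7.38 in IN and 8.27 and 7.73 in P+I libraries in A549. Its palbociclib rise of 0.34 was lost without untreated replicate 2 (0.23) or palbociclib replicate 2 (0.19) and with DESeq2 (0.32), and its indisulam fall of 0.41 was lost without untreated replicate 1 (-0.29), indisulam replicate 1 (-0.37) or indisulam replicate 2 (-0.44) and with DESeq2 (-0.42). HGF in SUM159 was at 61.0 and 62.1 CPM untreated, 59.1 and 53.6 in PD, 62.5 and 61.2 in IN and 49.9 and 49.2 in P+I libraries. The combination gave -0.31 ± 0.05 (SE, adjusted p = 6.16e-05), and the palbociclib fall of 0.13 was lost without untreated replicate 1 (-0.14), untreated replicate 2 (-0.12) or palbociclib replicate 2 (-0.06) and with total-count scaling (-0.03), DESeq2 (-0.12) or no filter on low counts (-0.10).

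FGF2 was higher in SUM159 with palbociclib (0.39 ± 0.04 (SE, adjusted p = 2.69e-07)) and lower with indisulam in both lines (-0.21 in SUM159 and -0.22 in A549). Its rises with the combination were 0.20 in A549 and 0.13 in SUM159, the latter lost without untreated replicate 2 (0.12) or combination replicate 2 (0.10), and the palbociclib rise in A549 (0.15) was lost without untreated replicate 1 (0.16), untreated replicate 2 (0.13) or palbociclib replicate 2 (0.15) and with DESeq2 (0.14) or no filter on low counts (0.14). ANGPTL4, an inhibitor of lipoprotein lipase, moved with the drugs in SUM159, by 0.37 with palbociclib and -0.45 with indisulam. The combination fall of 0.20 was lost with total-count scaling (-0.05), and the palbociclib rise in A549 (0.73) was lost without untreated replicate 1 (0.53) or palbociclib replicate 2 (0.45). STC1, a secreted glycoprotein hormone, was higher with every treatment in SUM159 (0.45, 0.33 and 0.58 in the order PD, IN and P+I) and with the combination in A549 (0.41). INHBA, the activin A subunit gene, was under 1 CPM in SUM159 and was not called.

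CCN2, or connective tissue growth factor, was higher with every treatment in both lines. In A549 it stood at 12.1 and 10.8 CPM untreated, 22.0 and 21.5 in PD, 14.5 and 15.2 in IN and 18.0 and 20.6 in P+I libraries. Palbociclib gave 0.92 ± 0.09 (SE, adjusted p = 1.76e-06) and the combination 0.75, and the indisulam rise of 0.37 was lost without untreated replicate 2 (0.30). In SUM159 CCN2 was at 174 and 165 CPM untreated, 246 and 238 in PD, 273 and 277 in IN and 319.8 and 338 in P+I libraries. The 4 groups did not overlap, with 0.51 for palbociclib, 0.70 for indisulam and 0.95 ± 0.04 (SE, adjusted p = 1.62e-12) for the combination. Its relative CCN1 was at 15.9 and 14.1 CPM untreated, 14.4 and 15 in PD, 19.4 and 18.4 in IN and 20.3 and 19.9 in P+I libraries in A549. The combination gave 0.42 ± 0.09 (SE, adjusted p = 0.000689), and the indisulam rise of 0.33 was lost without untreated replicate 2 (0.26). In SUM159 CCN1 followed palbociclib, at 279 and 273 CPM untreated, 369.5 and 366 in PD, 272 and 267 in IN and 359 and 367 in P+I libraries. All 4 libraries given palbociclib lay above all others, and the changes were 0.41 with palbociclib and 0.40 with the combination. ICAM1, an adhesion receptor shed from cells, was higher with each treatment in SUM159 (0.37, 0.40 and 0.42 in the order PD, IN and P+I) and, at under 1 CPM, was not called in A549. TNFRSF11B in A549 was higher with the combination (0.25), a call lost without untreated replicate 1 (0.21) or combination replicate 2 (0.23) and with DESeq2 (0.26) or no filter on low counts (0.24).

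**Figure D4:**
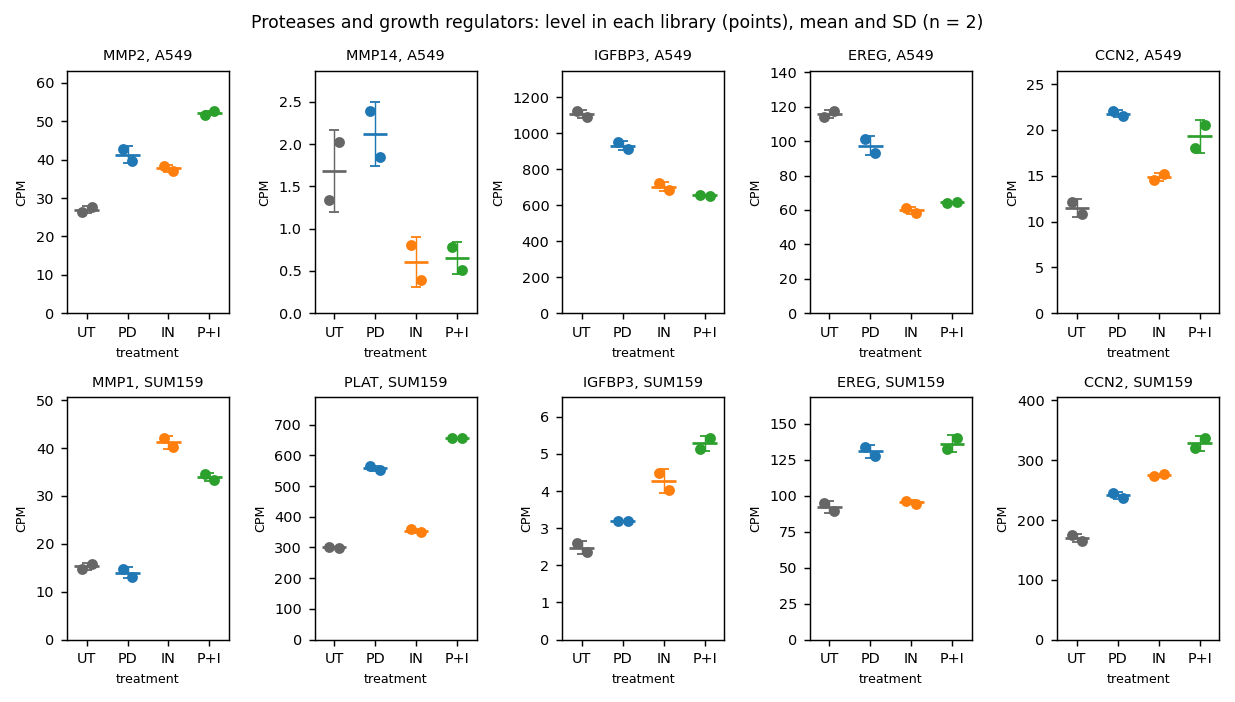
CPM (vertical axes, each from 0) of MMP2, MMP14, IGFBP3, EREG and CCN2 in A549 and of MMP1, PLAT, IGFBP3, EREG and CCN2 in SUM159, by treatment. Points are single libraries, horizontal bars means and error bars SD (n = 2). IGFBP3 and EREG fall in A549 and rise in SUM159 with the combination, MMP1 is high in both SUM159 groups given indisulam, and CCN2 is above untreated in every treated group.

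The next comparison was the combination with each single drug. Against palbociclib, 5 of 35 tested members were higher in A549 (all genes: 23.7%) and 14 lower (27.8%). In SUM159, 12 of 40 were higher (23.4%) and 15 lower (24.9%). The lower members included the CXC chemokines and PLAU: the difference was -0.62 for CXCL8 and -0.95 for CXCL5 in A549, and -0.96 for CCL5 and -0.60 for PLAU in SUM159. The higher members in SUM159 included MMP1 (1.29), IL1B (1.70), CSF3 (1.14) and IL1A (1.07). Against indisulam, 12 members were higher in A549 (18.6%) and 1, AREG, lower (20.1%), the AREG call (-0.20) being lost without indisulam replicate 1 (-0.20), indisulam replicate 2 (-0.20) or combination replicate 2 (-0.17) and with total-count scaling (-0.14) or DESeq2 (-0.19). In SUM159, 23 were higher (24.9%) and 4 lower (28%), with PLAT at 0.89 and CCL5 at 0.56 among the former.

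The log2 change with the combination was also set against the sum of the changes with each drug alone. Of the tested members, 3 departed from that sum in A549, with 2 above it (all genes: 1.49%) and 1 below (2.05%), and 4 departed in SUM159, with 1 above (2.21%) and 3 below (2.16%). Called or not, 33 of 40 members lay below the sum in SUM159 (50.9% of all genes), with a median departure of -0.14 against 0.00 over all genes, and 21 of 35 in A549 (52.9%), with a median of -0.05 against -0.01. CCN2 was below the sum in both lines, by 0.54 in A549 and 0.25 in SUM159. EREG (0.36) and FGF2 (0.26) were above it in A549, and in SUM159 IGFBP4 was above (0.21) and SERPINE2 (-0.30) and ICAM1 (-0.34) below. None of these 7 calls held in every fit that left out 1 library. In A549 the calls were lost as follows: CCN2 without untreated replicate 1 (-0.63), untreated replicate 2 (-0.47), palbociclib replicate 1 (-0.53), palbociclib replicate 2 (-0.56), indisulam replicate 1 (-0.57), indisulam replicate 2 (-0.51) or combination replicate 1 (-0.41) and with DESeq2 (-0.52); EREG without untreated replicate 1 (0.38), untreated replicate 2 (0.34), palbociclib replicate 2 (0.30), indisulam replicate 1 (0.40) or indisulam replicate 2 (0.32); FGF2 without untreated replicate 1 (0.25), untreated replicate 2 (0.28), palbociclib replicate 1 (0.26), palbociclib replicate 2 (0.26), indisulam replicate 1 (0.26) or indisulam replicate 2 (0.27) and with DESeq2 (0.29). In SUM159 the CCN2 call was lost without untreated replicate 2 (-0.22), indisulam replicate 2 (-0.26) or combination replicate 1 (-0.22), that of SERPINE2 without untreated replicate 2 (-0.25), indisulam replicate 1 (-0.27) or combination replicate 1 (-0.28), that of IGFBP4 without untreated replicate 2 (0.20), palbociclib replicate 1 (0.17), indisulam replicate 1 (0.21), indisulam replicate 2 (0.19), combination replicate 1 (0.22) or combination replicate 2 (0.19) and with no filter on low counts (0.18) and that of ICAM1 without untreated replicate 1 (-0.34), untreated replicate 2 (-0.36), indisulam replicate 1 (-0.38), indisulam replicate 2 (-0.33), combination replicate 1 (-0.32) or combination replicate 2 (-0.37) and with DESeq2 (-0.34). IL6 was below the sum by 0.89 (SE 0.33, adjusted p = 0.164) in A549 and by 0.71 (SE 0.25, adjusted p = 0.126) in SUM159, neither of which passed the threshold.

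**Figure D5:**
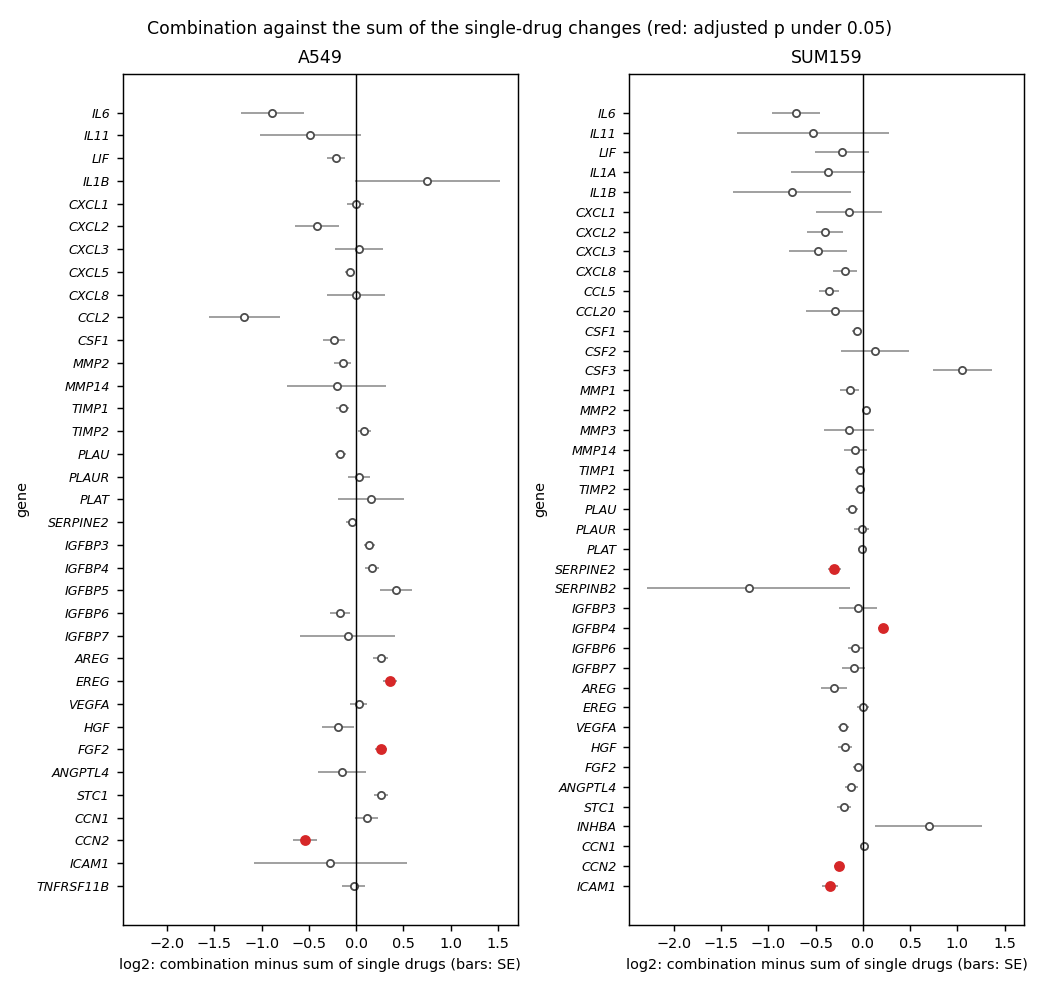
Log2 change with the combination minus the sum of the log2 changes with each drug alone, for tested members in A549 (left) and SUM159 (right). Bars are SE and filled red points have edgeR adjusted p-values under 0.05. In SUM159 33 of 40 points lie below 0, in A549 21 of 35, and CCN2 is below it in both lines.

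The response of 43 members was then compared between the lines as an interaction in the fit of all 16 libraries. Of the 43, 12 had passed the filter of 1 line only. Their response in the other line rests on few or no counts, at most 7 in any library. Of these 12, only MMP1 was called, with indisulam and with the combination. For palbociclib, the change in SUM159 minus that in A549 was positive for 13 members (all genes: 9.66%) and negative for 3 (3.15%). For indisulam the counts were 10 (8.04%) and 5 (6.96%), and for the combination 14 (19%) and 3 (11.8%). A positive difference can be a smaller fall as well as a larger rise. AREG with the combination, at -0.94 in A549 and -0.63 in SUM159, counted as positive. The split between directions depended on the scaling of the 16 libraries. The median response difference of all genes was 0.08 with palbociclib and 0.10 with the combination, and leaving out any single A549 library of the groups compared moved it down, by up to 0.183 and 0.157. The palbociclib counts were then 6 and 4 without either A549 untreated replicate, and the combination counts 8 and 6 without A549 combination replicate 2. With the scaling factors of each line's own fit, an alternative added later, the all-gene medians were -0.01 and 0.03, and the counts became 10 and 4 for PD, 10 and 5 for IN, and 12 and 4 for P+I.

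EREG, VEGFA, SERPINE2, IGFBP3 and MMP2 were called with all 3 treatments under both scalings. EREG differed by 0.86, 1.01 and 1.48 in the order PD, IN and P+I, and by 0.76, 1.01 and 1.41 with the factors of each line. VEGFA differed by 0.51, 0.36 and 0.60 (0.41, 0.35 and 0.53 with the factors of each line). SERPINE2 differed by 0.44, 0.29 and 0.44 (0.35, 0.29 and 0.38). MMP2 responded less in SUM159 each time, by -0.24, -0.40 and -0.49 (-0.33, -0.40 and -0.56).

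Of the 31 members tested in both lines, palbociclib gave 11 called higher in both (IL6, CSF1, MMP2, TIMP1, TIMP2, SERPINE2, IGFBP6, PLAU, ANGPTL4, FGF2 and CCN2) (13.6% of all genes tested in both) and 1 lower in both (AREG, against 19.1%), with EREG and HGF called in opposite directions (1.3%). Indisulam gave 2 higher in both (TIMP1 and CCN2, against 13.5%) and 4 lower in both (CXCL8, CXCL1, PLAU and FGF2, against 17.5%), with IGFBP3 and VEGFA opposite (1.82%). The combination gave 12 higher in both (17.2%) and 2 lower in both (CXCL1 and AREG, against 23%), while MMP14, IGFBP3, IGFBP4, EREG and VEGFA were called in opposite directions (5.34%). Several of these calls in a single line were lost without 1 library, as given with each gene above. The TIMP1 rise with indisulam in A549 (0.15) was also lost in 3 of the 4 fits that left out 1 library. Over these 4 fits it ranged from 0.12 to 0.20.

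Genes that act around the secreted factors were described from lists of regulators, receptors and other secreted factors. Of 40 regulators of the programme, 37 were tested in A549, where 17 were higher and 11 lower with the combination (median log2 change 0.19), and 38 in SUM159, where 16 were higher and 13 lower (median 0.05). Over all genes, 27.4% were higher and 30.4% lower with the combination in A549 and 32.2% and 33.1% in SUM159, which are the shares to set beside the counts of each list. STING1, the adaptor of cytosolic DNA sensing, was higher with the combination in A549 (1.41) and SUM159 (1.19), whereas its upstream sensor CGAS was lower in both (-0.77 in A549 and -1.15 in SUM159), as was MTOR (-1.31 and -0.91). RELA, the p65 subunit of NF-κB, was 0.30 in A549, called, and 0.06 in SUM159, not called. NFKBIA, an NF-κB inhibitor and target, was 0.46 and 0.00 in the same order, called in A549 alone. TNFAIP3, another such target, was 0.70 in A549, lost without untreated replicate 1 (0.55), and 0.31 in SUM159, lost without untreated replicate 2 (0.23). CEBPB was called in SUM159 (0.50) and not in A549 (-0.07).

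Of 39 receptors for these factors, 27 were tested in A549 (12 higher and 3 lower with the combination) and 24 in SUM159 (9 higher and 5 lower). IL11RA was higher in both lines (1.12 in A549 and 1.65 in SUM159), as were IL6R (0.94 and 0.53 in the same order) and IGF1R (0.47 and 1.02). IL1R1, the receptor of IL-1, was higher in SUM159 (0.24), and its fall of 0.15 in A549 was lost without untreated replicate 1 (-0.14), untreated replicate 2 (-0.16), combination replicate 1 (-0.14) or combination replicate 2 (-0.14) and with total-count scaling (-0.06), DESeq2 (-0.14) or no filter on low counts (-0.16). Of 50 other secreted factors, 35 were tested in A549 (18 higher and 5 lower with the combination, median 0.31) and 38 in SUM159 (16 higher and 7 lower, median 0.27). GDF15, a stress-induced cytokine, was higher in A549 (0.95) and SUM159 (1.22), as was PDGFB (1.33 and 1.09).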

How the data were processed

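Poly(A) RNA of 16 libraries (8 groups of 2, taken from the cell line, treatment and replicate in the labels) was read by the authors on strand-specific libraries and aligned to GRCh38 with HISAT2 2.2.1. The authors deposited, for each Ensembl gene, its raw count of reads. The submitters' processing notes name HTSeq, whose strand setting and annotation release are not given in the sources used here. Between 13.2% and 16.4% of reads per library were not assigned to a single gene and were left out. These reads overlapped no gene, overlapped several genes or aligned to several places. Of 58676 identifiers, 58207 matched GENCODE 44, which gave symbols, positions and lengths.

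Counts were tested with edgeR 4.0.16 in R 4.3.3: filterByExpr (15744 genes kept in A549, 16080 in SUM159 and 17764 over both lines), TMM scaling, 1 coefficient per group, the quasi-likelihood test and adjustment by Benjamini and Hochberg over all genes tested, with a threshold of 0.05. Each line was fitted on its 8 libraries, and differences between lines were interactions over 16. CPM used TMM-scaled library sizes, and the zero counts' floor covers counting error only. No pair of duplicates was alike within counting noise (chi-square per degree of freedom 1.59 to 9.13). The highest value was that of untreated SUM159, the reference of every SUM159 comparison with untreated cells. The next highest, 6.21, was that of A549 with the combination. Scripts were tested on simulated data. Alternatives were total-count scaling, DESeq2 1.42.0, no filter, a replicate block and leaving out each library, and, added once values were known, crossed replicate numbers and TMM factors taken within each line.

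The members and lists were chosen with earlier results of these data known. Values in every library were given for IL6, CXCL8, IL1A, IL1B, CCL2, MMP1, SERPINE2, IGFBP3, VEGFA, CCN1 and CCN2, and for the 3 largest called rises and 3 largest called falls of members averaging 1 CPM or more in each comparison with untreated cells. From each list the 2 largest called changes with the combination in each line were named, with RELA, NFKBIA, TNFAIP3, CEBPB, IL1R1 and GDF15. Another gene that this rule named is not reported here.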

Additional observations from a re-analysis of the deposited data

Results flagged for a closer look

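The response of a member differed between SUM159 and A549 in 48 tests of an interaction (edgeR, adjusted p under 0.05). The fit held all 16 libraries, with n = 2 per group. Of 43 members tested with each treatment, 16 were called with palbociclib (all genes: 12.8%), 15 with indisulam (15%) and 17 with the combination (30.8%). Each difference is given as the log2 change in SUM159 minus that in A549. With palbociclib the difference was positive for CXCL3 (1.01), LIF (0.90), EREG (0.86), PLAT (0.71), IGFBP3 (0.71), CCN1 (0.53), VEGFA (0.51), STC1 (0.45), SERPINE2 (0.44), FGF2 (0.33), IGFBP4 (0.31), TIMP1 (0.25) and TIMP2 (0.21), and negative for HGF (-0.38), CCN2 (-0.31) and MMP2 (-0.24). With indisulam the difference was positive for MMP1 (2.72), MMP14 (1.55), IGFBP3 (1.43), EREG (1.01), AREG (0.70), HGF (0.42), VEGFA (0.36), CCN2 (0.33), SERPINE2 (0.29) and STC1 (0.28), and negative for MMP2 (-0.40), CCN1 (-0.36), IGFBP6 (-0.35), CSF1 (-0.33) and PLAU (-0.22). With the combination the difference was positive for IL1B (2.45), MMP14 (2.02), IGFBP3 (1.91), MMP1 (1.69), EREG (1.48), LIF (1.04), CXCL2 (0.73), VEGFA (0.60), SERPINE2 (0.44), TIMP1 (0.44), IGFBP4 (0.38), AREG (0.38), CCN2 (0.28) and STC1 (0.23), and negative for ANGPTL4 (-0.58), MMP2 (-0.49) and PLAU (-0.17). The smallest adjusted p-values were those of EREG with each treatment (6.57e-09, 1.05e-09 and 3.14e-13 in the order PD, IN and P+I). MMP1 had 3 to 7 counts per library in A549, and did not pass the filter there. No group of 2 libraries can be tested for an outlying library.

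Several of these calls did not hold without a single library, and the difference without it is given in brackets. Without A549 combination replicate 1, calls were lost for CXCL2 (0.55), IL1B (2.14), AREG (0.26), STC1 (0.12) and CCN2 (0.039) with P+I. Without A549 combination replicate 2, the lost calls were CXCL2 (0.61), MMP1 (1.07), IGFBP4 (0.17), AREG (0.19), STC1 (0.049) and CCN2 (0.22) with P+I. Without A549 indisulam replicate 1, the threshold was missed by IGFBP6 (-0.34), HGF (0.39), STC1 (0.27) and CCN2 (0.30) with IN. Without A549 indisulam replicate 2, calls no longer passed for CSF1 (-0.26), MMP14 (1.11), IGFBP6 (-0.38), PLAU (-0.22), HGF (0.43), STC1 (0.27) and CCN2 (0.34) with IN. Without A549 palbociclib replicate 1, calls were lost for TIMP1 (0.015), TIMP2 (0.011), IGFBP4 (0.068), PLAT (0.34) and FGF2 (0.15) with PD. Without A549 palbociclib replicate 2, the lost calls were CXCL3 (0.70), TIMP1 (0.18), TIMP2 (0.10), HGF (-0.36) and FGF2 (0.20) with PD. Without A549 untreated replicate 1, the threshold was missed by CXCL3 (0.84), TIMP1 (0.031), TIMP2 (0.055), IGFBP4 (0.089), STC1 (0.26), FGF2 (0.14) and CCN1 (0.26) with PD, HGF (0.28), STC1 (0.24) and CCN2 (0.21) with IN, MMP1 (1.60), IGFBP4 (0.18), AREG (0.19), STC1 (0.067) and CCN2 (0.032) with P+I. Without A549 untreated replicate 2, calls no longer passed for CXCL3 (0.83), LIF (0.72), TIMP1 (0.13), TIMP2 (0.031), IGFBP4 (0.19), PLAT (0.23) and FGF2 (0.18) with PD, CSF1 (-0.23), MMP14 (1.23), IGFBP6 (-0.31) and STC1 (0.28) with IN, CXCL2 (0.38), IL1B (1.94), MMP1 (1.49), AREG (0.26), STC1 (0.11) and CCN2 (0.21) with P+I. Without SUM159 combination replicate 1, calls were lost for CXCL2 (0.62) and PLAU (-0.14) with P+I. Without SUM159 combination replicate 2, the lost calls were STC1 (0.19) and CCN2 (0.23) with P+I. Without SUM159 indisulam replicate 1, the threshold was missed by PLAU (-0.22) and HGF (0.41) with IN. Without SUM159 indisulam replicate 2, calls no longer passed for IGFBP6 (-0.32), PLAU (-0.23), HGF (0.44), STC1 (0.27) and CCN2 (0.32) with IN. Without SUM159 palbociclib replicate 1, calls were lost for TIMP2 (0.19) with PD. Without SUM159 palbociclib replicate 2, the lost calls were LIF (0.85), HGF (-0.31) and CCN2 (-0.29) with PD. Without SUM159 untreated replicate 1, the threshold was missed by TIMP2 (0.20), HGF (-0.40) and CCN2 (-0.28) with PD, IGFBP6 (-0.32) and HGF (0.40) with IN, PLAU (-0.18) with P+I. Without SUM159 untreated replicate 2, calls no longer passed for CXCL3 (0.77), LIF (0.49), TIMP2 (0.22), PLAT (0.70) and HGF (-0.36) with PD, IGFBP6 (-0.38), PLAU (-0.22), HGF (0.44), STC1 (0.26) and CCN2 (0.29) with IN, CXCL2 (0.58), IL1B (2.19), LIF (0.63), PLAU (-0.17), STC1 (0.21) and CCN2 (0.24) with P+I. DESeq2 did not call CXCL3 (0.89), TIMP1 (0.15), TIMP2 (0.11) and PLAT (0.61) with PD, HGF (0.41) and STC1 (0.27) with IN, CXCL2 (0.64), AREG (0.29), STC1 (0.15) and CCN2 (0.19) with P+I. With no filter on low counts the calls lost were TIMP2 (0.18) and PLAT (0.67) with PD, PLAU (-0.20) with IN, MMP1 (1.68), PLAU (-0.19), STC1 (0.22) and CCN2 (0.26) with P+I. Scaling by total counts lost TIMP2 (0.16) with PD, IGFBP6 (-0.32) with IN. With the scaling factors of each line's own fit, added after the values were known, the calls lost were TIMP1 (0.16), TIMP2 (0.12) and PLAT (0.61) with PD, STC1 (0.17) and CCN2 (0.21) with P+I.

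Other differences kept their call but moved by over 1.5 times without 1 library. For the fit without A549 combination replicate 1 they were 0.27 for TIMP1, 0.27 for SERPINE2, -0.34 for PLAU and 0.36 for VEGFA with P+I. For the fit without A549 combination replicate 2 the values were -0.31 for PLAU with P+I. For the fit without A549 palbociclib replicate 1 they were -0.37 for MMP2, 0.25 for SERPINE2, -0.65 for HGF, 0.25 for STC1, 0.33 for CCN1 and -0.48 for CCN2 with PD. For the fit without A549 palbociclib replicate 2 the values were -0.43 for MMP2, 0.30 for VEGFA and -0.47 for CCN2 with PD. For the fit without A549 untreated replicate 1 they were -0.38 for MMP2, 0.24 for SERPINE2, -0.67 for HGF and -0.58 for CCN2 with PD, 0.24 for TIMP1, 0.27 for SERPINE2 and -0.33 for PLAU with P+I. For the fit without A549 untreated replicate 2 the values were -0.43 for MMP2, 0.32 for VEGFA and 0.30 for STC1 with PD, -0.31 for PLAU and -0.93 for ANGPTL4 with P+I. For the fit without SUM159 untreated replicate 1 they were 1.47 for LIF with PD, 1.60 for LIF with P+I. Leaving out any A549 library of the groups compared moved the median difference of all genes by between -0.183 and -0.129 with palbociclib and the combination, and these values include that shift.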

How the results depend on the processing

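Results were recomputed for 442 log2 changes of 60 genes, 403 of them called. No called change turned direction under total-count scaling, DESeq2, no filter, the replicate block or without a library. Calls were lost 16 times with total-count scaling, 47 with DESeq2, 23 with no filter, 14 with the replicate block and 297 times over all fits without 1 library. A library left out leaves its group with 1, which is assumed to vary like the others, and the fit then has fewer libraries. The number of members that departed from the additive sum moved most: in A549 it was 3, and 1 with DESeq2, 5 with no filter and 0 to 5 without 1 library, and in SUM159 it was 4, and 0 to 6 without 1 library. Members whose response differed between lines numbered 16 with palbociclib (10 to 15 without 1 library, lowest without either A549 untreated replicate), 15 with indisulam (8 to 13, lowest without A549 indisulam replicate 2) and 17 with the combination (11 to 16, lowest without SUM159 untreated replicate 2). The cause was not tested. Scaling within each line, an added alternative, gave 14, 15 and 16.

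Same-numbered libraries did not deviate together (correlations -0.114 to 0.114 over 12 pairs of groups), so the numbers name libraries and do not pair them. With the replicate block the members called were 21, 22, 28, 25, 18 and 29 in the 6 comparisons with untreated cells (palbociclib, indisulam and combination in A549, then in SUM159), against 21, 22, 27, 26, 19 and 30 without it. In these comparisons the block lost the member calls of HGF with palbociclib, CXCL3 with indisulam and IGFBP4 with the combination in SUM159. A fit that crossed the numbers of the combination libraries, added with the values already known, gave, for combination against palbociclib, 19 members in A549 and 27 in SUM159, the counts as reported, and lost the call of IL1B in A549.

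Small changes that had not been called turned sign. With total-count scaling this applied to VEGFA in A549 with palbociclib (0.051), CCN1 in A549 with palbociclib (0.038), SERPINE2 in A549 with combination (0.016), IGFBP4 in SUM159 with palbociclib (0.062), AREG in SUM159 with indisulam (0.012), CCN1 in SUM159 with indisulam (0.020) and CCL5 in SUM159 with combination (0.11). DESeq2 gave -0.0093 for HGF in SUM159 with indisulam. Without 1 library the ranges spanned 0 for CXCL2 in A549 with palbociclib (-0.14 to 0.27), IL1B in A549 with palbociclib (-0.049 to 0.95), VEGFA in A549 with palbociclib (-0.074 to 0.056), CCN1 in A549 with palbociclib (-0.11 to 0.063), IL6 in A549 with indisulam (-0.22 to 0.13), IL1B in A549 with indisulam (-0.32 to 0.83), IL6 in A549 with combination (-0.13 to 0.19), CXCL8 in A549 with combination (-0.15 to 0.30), IL6 in SUM159 with indisulam (-0.43 to 0.067), CXCL2 in SUM159 with indisulam (-0.22 to 0.10), AREG in SUM159 with indisulam (-0.15 to 0.051), HGF in SUM159 with indisulam (-0.0084 to 0.028) and IL6 in SUM159 with combination (-0.080 to 0.31). Depth limits members under 1 CPM, whose libraries hold few counts.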
